A study of Mus musculus with 2 samples.

Results

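The late-numbered miRNA entries are the precursor hairpins listed for the E9.5 mouse heart whose mature name carries a miRBase number of 1800 or more, such as miR-1931, miR-3473b, miR-5099, miR-5126 and miR-6899. They were chosen by the number alone, without use of reads or scores. There were 175 such entries of 568 in replicate 1 and 155 of 523 in replicate 2. Entries of the 2 libraries were paired by position, which gave 214 late-numbered entries of 620 in all, under 190 names and at 196 separate loci. The other 406 entries, which include 16 let-7 entries with no such number, were lower-numbered.

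The libraries hold small RNA from the heart of wild type C57BL/6 embryos at embryonic day 9.5, when atria and ventricle take distinct shapes. There was 1 group of 2 libraries, with no treatment, mutant or second tissue, so no conditions were compared. Neither the number of embryos per library nor any pooling of hearts was given, and differences between the libraries may therefore be technical. Mature reads summed over all entries came to 4942257 for the first library and 4806179 for the second. Shares of reads refer to these sums unless stated. Reads of a mature sequence with several hairpins entered at each of them, such as 492873 and 492871 for miR-1a in replicate 1. The sums are therefore larger than the number of different mature reads. Mature and star reads are those that the tables assign to either arm of a hairpin, and the mature arm usually had more. The cardiomyocyte miRNAs miR-1a, miR-133a, miR-208a, miR-208b and miR-499 were all listed in replicate 1, and all but miR-208a in replicate 2, and took 22.6% and 23.5% of the mature reads, summed over entries. The endothelial miR-126a took 2.90% and 2.87%. Among markers of blood cells, the erythroid list held 0.219% and 0.273%, and the white blood cell list 0.00459% and 0.00431%, with miR-223 not listed in either library.

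A canonical miRNA is cut from a hairpin in its primary transcript by Drosha with Dgcr8 and then by Dicer, which leaves a duplex of a mature strand and its star strand with defined 5′ ends. In a mirtron the intron itself, once spliced out, forms the hairpin in place of the Drosha cut, so the duplex arms lie at the splice sites. In miRBase the number follows the order in which sequences were submitted, and many late entries come from deep sequencing. Bases 2 to 8 of the mature strand, the seed, guide binding to target mRNAs.

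The sequences of 6 late-numbered entries matched to RefSeq (GRCm38.p6) are shown first, since they range from many reads with hardly a star read to a clear pair of strands. They are the reads' consensus in the deposited tables, with the seed in capitals.
miR-1983: cUCACCUGgagcauguuuuc
miR-1981-5p: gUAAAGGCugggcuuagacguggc
miR-1839-5p: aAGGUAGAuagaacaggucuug
miR-1964-3p: cCGACUUCugggcuccggcuu
miR-3068-5p: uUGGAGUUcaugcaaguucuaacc
miR-3074-5p: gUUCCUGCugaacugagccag
The next set shows entries whose reads end where an annotated intron ends. Here the capitals mark the last bases, the AG of the 3′ splice site.
miR-7068-3p: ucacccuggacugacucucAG
miR-6988-3p: ugaccucuguaucuccugccAG
miR-6899-3p: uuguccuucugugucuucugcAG
The last set shows the entries that share the letters GGCUGG and GAUGGC, marked by capitals, among them those with the most copies in the genome.
miR-3473b: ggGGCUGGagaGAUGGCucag
miR-3473a: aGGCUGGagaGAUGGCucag
miR-1934-3p: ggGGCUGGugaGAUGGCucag
miR-5128: aauuggGGCUGGcgaGAUGGCu
miR-1931: agGGCUGGugcGAUGGCu
The 189 different mature sequences of late-numbered entries held 182 seeds, so few shared one. A seed in common with a lower-numbered entry was found for 2 of the 189. These were miR-6952-3p with miR-301a-5p and miR-301b-5p, and miR-7670-5p with miR-693-5p. Both late-numbered entries were listed in replicate 1 only, miR-6952-3p with 25 mature reads and miR-7670-5p with 2 and no star read. The reads of miR-7670-5p began inside the RefSeq sequence, so the shared seed is that of the reads and not of the RefSeq strand.

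Late-numbered entries were many and took few reads. They made up 34.5% of all entries, but held 0.597% of mature reads in replicate 1 (95% Wilson interval 0.590 to 0.603) and 0.692% in replicate 2 (0.684 to 0.699), a mean of 0.644% ± 0.067 (SD, n = 2). In reads, this was 29487 and 33248. Hairpins that share a mature sequence repeat its reads, and without these repeats 21631 and 24396 late-numbered reads remained. With each mature sequence counted once in both sets, the mean late-numbered share was 0.647%. The Wilson intervals cover counting error only. They treat reads repeated over hairpins as separate reads, which makes them too narrow. As computed, they did not overlap between the libraries.

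The median late-numbered entry reached 15 mature reads in its higher library, against 728.5 for lower-numbered entries. Of the 214, 86 had at least 10 reads in both libraries and 27 had at least 100 in both. A further 88 stayed under 10 reads wherever they were listed, and 19 of these were listed in both libraries. The others reached 10 reads in 1 library and had fewer, or were not listed, in the other. An entry that is not listed has no count there. A count of 0 leaves up to 3 reads possible, and 25 late-numbered entries did not exceed 3 reads in any library that listed them.

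**Figure D1:**
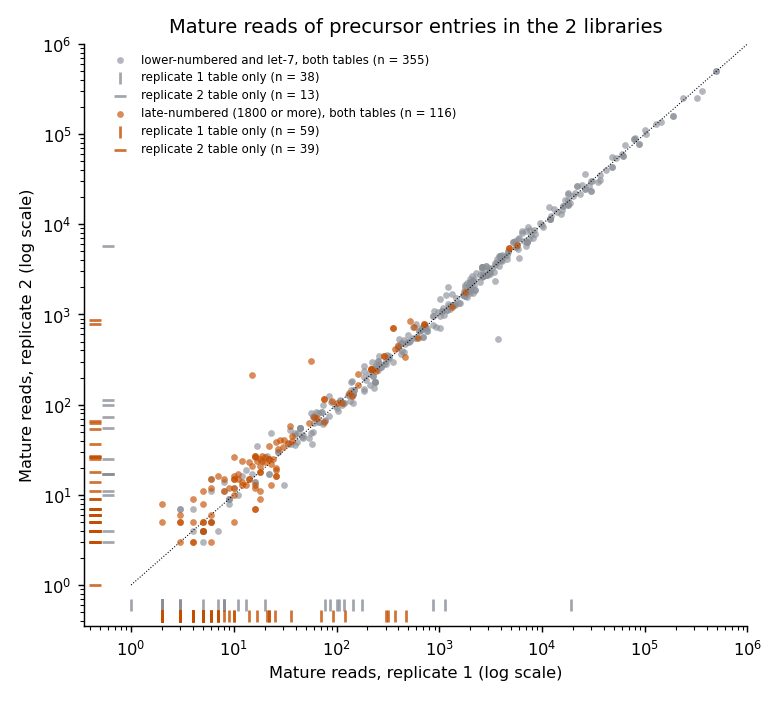
Mature reads of each precursor entry in replicate 1 (horizontal, log scale) and replicate 2 (vertical, log scale), with late-numbered entries in orange and lower-numbered entries in grey. Ticks along the axes are entries listed in 1 table only, 98 late-numbered and 51 lower-numbered. Late-numbered entries crowd the low end, and miR-1931 and miR-3963 lie far above the dotted line of equal reads.

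A small set of entries held most of the late-numbered reads. Entry miR-1983 (chr13:21988800-21988857, mm9, minus strand, outside annotated genes) had the highest count, with 5677 and 5839 mature reads in replicates 1 and 2. It had 3 and 0 star reads and a miRDeep2 score of -3.0 in both libraries. The miRDeep2 score is a log-odds value that rises with reads, star reads and a stable hairpin, and a value below 0 means that the model favours a background hairpin. High reads and a negative score therefore occurred together here.

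Next came miR-5099, a name carried by 3 entries. Its 2 overlapping hairpins on chromosome 12 listed the same 4746 and 5462 reads, with no star read in either library and scores from -3.7 to 0.0. The entry on chromosome 1 had 400 and 442 reads, again with no star read. Together miR-1983 and miR-5099 held 15569 of 29487 late-numbered reads in replicate 1 and 17205 of 33248 in replicate 2, with the chromosome 12 reads counted at both hairpins.

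Entry miR-1981-5p (chr1:186646286-186646367) had 1785 and 1777 mature reads with 246 and 261 star reads, the most star reads of any late-numbered entry. Its hairpin filled an intron of 82 bases in the gene Mosc2 from end to end. The score was -1.8 in both libraries despite the star reads.

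Entry miR-1839-5p (chr7:88674805-88674866) had 1317 and 1205 mature reads and 82 and 96 star reads. Its scores of 700.0 and 650.0 were the highest of any late-numbered entry. It was also the lowest number in the set. The nearest number below 1800 was miR-1298-5p, with 3 and 7 mature reads, no star read, and scores of -1.9 and 0.0.

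**Figure D2:**
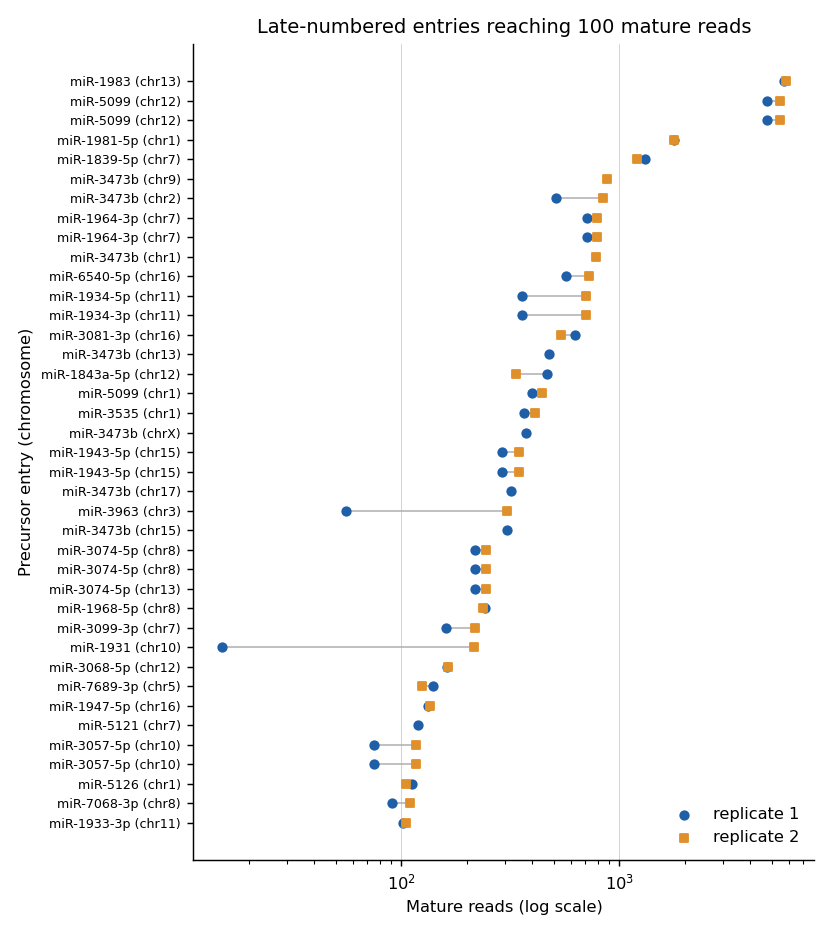
Mature reads (log scale) of the 39 late-numbered entries that reached 100 reads in a library, with replicate 1 as blue circles and replicate 2 as orange squares, joined where both tables list the entry. Most pairs sit close together, while miR-1931 runs from 15 to 215 reads and several miR-3473b entries have a single point.

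Listing in both tables was less frequent among late-numbered entries, 116 of 214 (54.2%) against 355 of 406 (87.4%). Of the rest, 59 were listed in replicate 1 only and 39 in replicate 2 only. The single-table entries had a median of 6.0 reads and ranged from 1 to 877. Since listing depends on reads, entries were set side by side in bands of their higher count. With 1 to 9 reads, 21.6% of 88 late-numbered and 35.7% of 42 lower-numbered entries were in both tables. With 10 to 99 reads the shares were 74.7% of 87 and 81.4% of 70. From 100 to under 1000 reads they were 79.4% of 34 and 92.2% of 103. All 5 late-numbered entries with 1000 reads or more were in both tables, as were 188 of the 191 lower-numbered ones. Entries are not replicates of a condition, so these shares were not tested against each other.

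Of the 7 single-table entries that reached 100 reads, 6 were miR-3473b. The exception, miR-5121, had 120 reads in replicate 1, no star read, and lay on an exon of the small nucleolar RNA gene Snord33.

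Star reads come from the strand that is usually degraded after Dicer, and their presence at the expected offset is a sign of a duplex. In replicate 1, 62 of 175 late-numbered entries (35.4%) had at least 1 star read, against 271 of 393 lower-numbered entries (69.0%). In replicate 2, the counts were 59 of 155 (38.1%) and 262 of 368 (71.2%). Star support grew with reads among lower-numbered entries in both libraries, and among late-numbered entries in replicate 1 only.

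In the band from 100 to under 1000 mature reads, 12 of 27 late-numbered entries (44.4%) had a star read in replicate 1, beside 76 of 101 lower-numbered (75.2%). Replicate 2 gave 8 of 29 (27.6%) and 72 of 98 (73.5%). Under 10 reads the order differed between the libraries. There the late-numbered share was 24.6% beside 29.5% in replicate 1, and 42.9% beside 29.4% in replicate 2.

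Of the 116 late-numbered entries in both tables, 31 had a star read in both (26.7%), and 54 had none in either. Among the 355 lower-numbered entries these numbers were 247 (69.6%) and 90. At least 10 star reads in both libraries were seen for 6 late-numbered entries. These were miR-1839-5p, miR-1843a-5p, miR-1933-3p, miR-1981-5p, miR-3068-5p and miR-3074-5p. Among these 6, the star count came closest to the mature count in miR-3068-5p, at 104 and 93 star beside 163 and 164 mature reads.

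**Figure D3:**
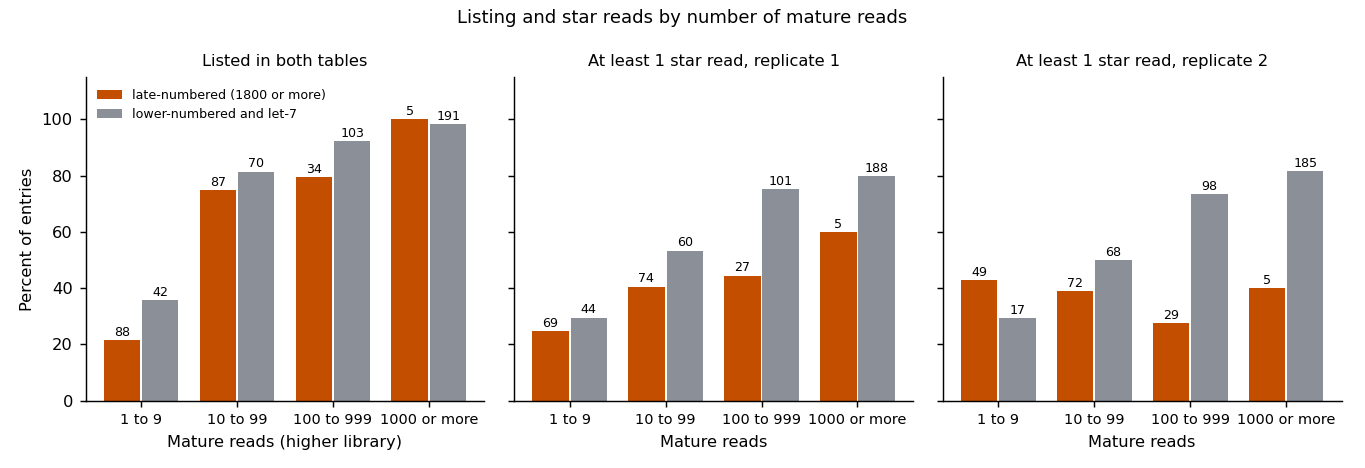
Percent of entries listed in both tables (left) and with at least 1 star read in replicate 1 (middle) and replicate 2 (right), by band of mature reads, with the number of entries above each bar. Orange bars are late-numbered and grey bars lower-numbered entries. From 10 reads upward, the orange star read bars stay below the grey ones in both libraries.

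The median miRDeep2 score of late-numbered entries was -0.4 in replicate 1 and 0.4 in replicate 2, against 34.0 and 67.5 for lower-numbered entries. Scores at or below 0 were given to 93 of 175 and 75 of 155 late-numbered entries, and to 64 of 393 and 43 of 368 lower-numbered ones. A score of 10 or more was reached by 22 late-numbered entries in replicate 1 (12.6%) and 17 in replicate 2 (11.0%), beside 54.2% and 58.2% of lower-numbered entries.

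The score followed the star reads. In replicate 1, none of 17 late-numbered entries with 100 reads or more and no star read scored 10, and 11 of 15 with a star read did. Lower-numbered entries showed the same division, with 0 of 63 and 188 of 226. In replicate 2 the late-numbered counts were 0 of 24 and 6 of 10, and among lower-numbered entries 0 of 60 without and 83.0% of those with a star read reached 10. Since star reads enter the score, the 2 measures are not independent.

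Among the most read entries without a star read in either library, miR-1964-3p had 710 and 791 mature reads at 2 overlapping hairpins that scored 2.5 and -2.4. Entry miR-3081-3p, in an intron of Boc, had 627 and 543 reads and a score of 2.8 in both libraries. The GC-rich miR-5126 on chromosome 1 had 112 and 105 reads and a score of -0.9 in both. Reads in these entries were close between the libraries, and the exact binomial test called a difference for miR-1964-3p only.

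A score of 10 or more in both libraries was given to 10 late-numbered entries. By reads, they were led by miR-1839-5p and miR-6540-5p, which had 573 and 728 mature reads, 9 star reads in each library and a score of 370.0 in replicate 2. The others were miR-1843a-5p, miR-1930-5p, miR-1943-5p, miR-1955-5p, miR-3061-3p, miR-3066-5p, miR-3068-5p and miR-3074-5p. For 13 more entries that were in both tables, the score reached 10 in 1 library only. For instance, miR-1969 scored 31.0 with 1 star read in replicate 1 and 1.2 with none in replicate 2, at 60 and 73 mature reads.

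**Figure D4:**
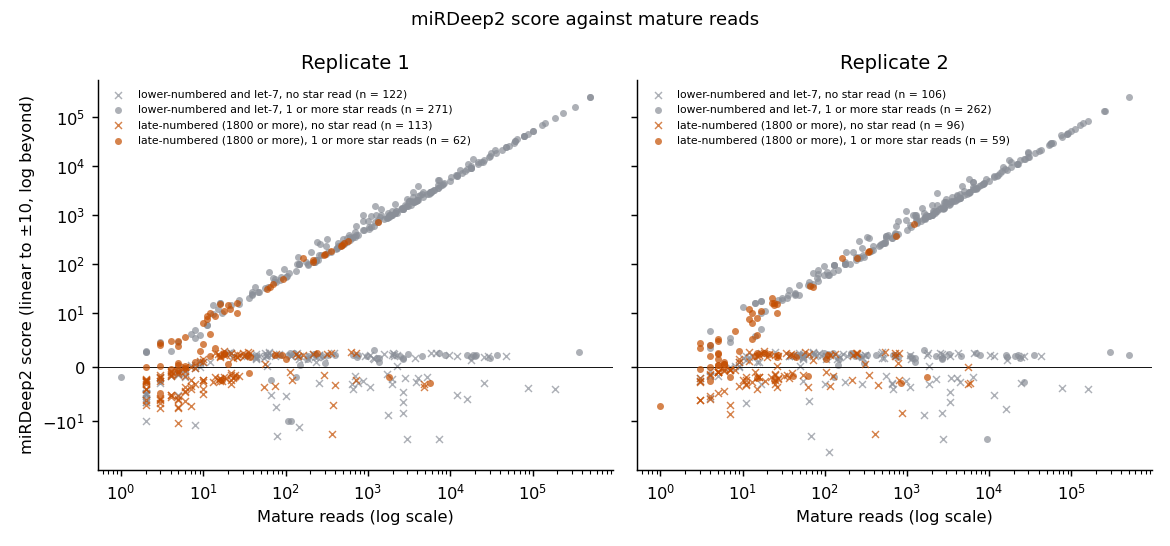
The miRDeep2 score (linear to 10 on either side of 0, log scale beyond) against mature reads (log scale) in replicate 1 and replicate 2, with late-numbered entries in orange, lower-numbered in grey, circles for entries with a star read and crosses for those without. Scores split into a rising line, made of entries with star reads, and a flat band near 0 that holds most late-numbered entries.

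The randfold test, in which miRDeep2 asks whether a hairpin folds more stably than shuffled sequence, was marked significant for 103 of 175 late-numbered entries (58.9%) in replicate 1 and 90 of 155 (58.1%) in replicate 2. The lower-numbered shares were 86.8% and 85.1%. The RNAfold minimum energy had a median of -0.39 kcal/mol per base in both sets. It was not adjusted for base composition, and the median hairpin GC was 53.9% for late-numbered and 46.6% for lower-numbered entries. Mature sequences of late-numbered entries were richer in GC, with a median of 55.3% against 45.5%. The median length was 22 bases in both sets. A mature sequence shorter than 20 bases was found for 16 of 214 late-numbered and 7 of 406 lower-numbered entries. With each mature sequence counted once, this was 13 of 189 and 7 of 311. A uracil as first base, common among strands bound by Argonaute, was found in 46.7% and 52.7%.

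The 5′ end of the reads, which sets the seed, was compared with the RefSeq mature sequence. Of 172 late-numbered entries that could be aligned, 77.3% began at the same base, against 288 of 310 lower-numbered (92.9%). A further 9 late-numbered and 2 lower-numbered entries had reads that did not align with the RefSeq strand of that name. Among late-numbered entries with 100 to under 1000 reads, 17 of 30 began at the same base. All 7 entries of miR-3473b were shifted, with reads that began 1 or 2 bases outside the RefSeq sequence. For miR-3963 and miR-1931 the reads began 3 and 5 bases inside it.

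Where the hairpins lay differed as well. An intron on the same strand held 130 of 214 late-numbered entries (60.7%) and 159 of 406 lower-numbered (39.2%), while 34 (15.9%) and 176 (43.3%) lay outside annotated genes. Lower-numbered miRNAs were often clustered, and 221 of them (54.4%) had another entry within 10 kb on the same strand. This was so for 6 late-numbered entries (2.80%), and for 1 of them the neighbour was lower-numbered.

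Intron ends were frequent among the late-numbered hairpins. The hairpin of 61 late-numbered entries (28.5%) reached to within 2 bases of an annotated intron end, in 60 different genes, against 4 lower-numbered entries (0.985%). In 56 it was the 3′ end of the intron alone, and in 5 the hairpin spanned the intron from end to end. The reads lay on the 3′ side of the hairpin in 44 of the 61, and in 38 of those 44 they ended in AG. Since the 3′ splice site is an AG, this ending largely follows from how these entries were matched. Among all 3′ side reads, those ending in AG made up 48 of 119 late-numbered and 16 of 204 lower-numbered entries. The 48 include those 38. Among late-numbered entries at no intron end or small nucleolar RNA, with at most 100 copies and no lower-numbered antisense partner, it was 7 of 65. The 4 lower-numbered entries at an intron end were miR-704, miR-877-5p, miR-1224-5p and miR-1231-5p.

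By number, intron ends were found for 27 of 43 entries numbered 6000 to under 7000 (62.8%) and 22 of 58 numbered 7000 to under 8000 (37.9%). The shares were 5.71% of 35 entries from 1800 to under 2000, 13.3% of 45 from 2000 to under 5000 and 12.5% of 24 from 5000 to under 6000. Listing in both tables fell across the same ranges, from 82.9% in the first to 68.9%, 12 of 24, 44.2%, 39.7% and, for the 9 entries at 8000 and above, 22.2%. Median reads in the higher library were 26, 35, 15, 10, 6.5 and 8 across these ranges.

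**Figure D5:**
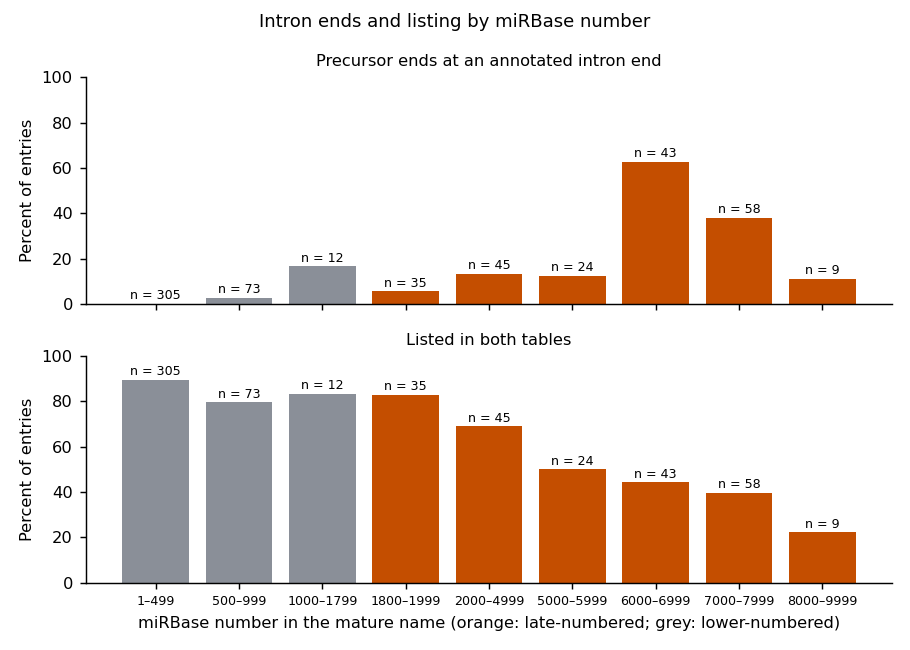
Percent of entries whose hairpin ends at an annotated intron end (top) and percent listed in both tables (bottom), by range of the miRBase number, with late-numbered ranges in orange and lower-numbered in grey. Intron ends peak at 62.8% for numbers 6000 to under 7000, and listing falls from 82.9% to 22.2% across the orange bars.

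The introns concerned had a median length of 272.0 bases and ranged from 67 to 36267, with 22 under 100 bases. Where several annotated introns shared an end and none was spanned, the first by genome position was taken. These lengths therefore depend on the strand and on the annotated transcripts. The entry miR-7068-3p, which spans an intron of 74 bases in Cherp, had 91 and 110 mature and 2 and 4 star reads. In Dnase1l1, miR-7091-3p spans an intron of 79 bases and had 37 and 45 mature reads with 9 star reads in each library. Both are short introns filled by their hairpin.

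At the 3′ end of an 82-base intron of Syvn1, which encodes a ubiquitin ligase of the endoplasmic reticulum, miR-6988-3p had 31 and 41 reads. Entry miR-7075-3p, in an intron of the telomere protein gene Terf2, had 37 and 40. The longest intron, of 36267 bases, was that of the transcription factor gene Klf7 and held miR-6899-3p with 10 and 16 reads and no star read. As a class, intron end entries had few reads. Only 26 of 61 reached 10 in a library, and they took 0.0494% and 0.0514% of mature reads. A star read was present in 18 of 49 in replicate 1 and 21 of 43 in replicate 2, yet 1 and 2 of them scored 10 or more.

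Overlap with a small nucleolar RNA was found for 8 late-numbered entries and for none of the 406 lower-numbered. These RNAs guide chemical modification of ribosomal and spliceosomal RNA. The 8 were miR-1839-5p, miR-1843a-5p, miR-1949, miR-3068-5p, miR-3069-3p, miR-3535, miR-5121 and miR-7650-5p. They fell apart in support. Entry miR-1843a-5p, on Scarna3b, had 465 and 336 mature reads, 10 and 11 star reads, and scores of 230.0 and 170.0. Entry miR-3535, on SNORD20, had 367 and 411 mature reads, no star read and a score of -18.0 in both libraries, the lowest of all late-numbered entries. Star reads were thus present in both libraries at miR-1839-5p, miR-1843a-5p and miR-3068-5p. At miR-1949 and miR-7650-5p there was 1 star read, in replicate 2 only. They were absent at miR-3535, and at miR-5121 and miR-3069-3p, which were each listed in 1 library.

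Antisense pairs with a lower-numbered miRNA were formed by 4 late-numbered entries. The 3 entries of miR-3074-5p lie opposite miR-24 at its loci on chromosomes 8 and 13. Each listed the same 218 and 246 mature reads, since the sequence has 2 copies in the genome, while miR-24-3p listed 12005 and 11363. Star reads told the hairpins apart, at 15 and 23 on chromosome 13 and at 1 and 0 for one of the chromosome 8 hairpins. Opposite miR-338-5p, which had 35 and 53 reads, miR-3065-5p was listed in replicate 2 only, with 5 reads.

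Genome copies were counted as exact matches of the mature sequence on both strands. More than 1 copy was found for 32 of 214 late-numbered entries (14.95%) and for 125 of 406 lower-numbered (30.8%). Taken per distinct mature sequence, the shares were 10.6% and 16.4%. The share with several copies was thus lower among late-numbered entries, but more than 100 copies were found for 10 of them (4.67%), beside 6 lower-numbered entries (1.48%) of miR-466i-5p and miR-574-5p, sequences made largely of alternating U and G.

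The 10 entries were miR-3473b (7 entries, 5217 to 13163 copies by the exact form), miR-1934-3p and miR-1934-5p (8905) and miR-3473a (3095). The letters GGCUGG followed by GAUGGC, read 5′ to 3′ on the strand of the reads, occurred in these and in miR-5128 (7 copies) and miR-1931 (6 copies), 12 late-numbered entries in all (5.61%), and in none of the 406 lower-numbered ones. The table places both miR-1934 hairpins on the same reads, and these reads aligned with neither RefSeq strand of miR-1934. A read with so many copies cannot be assigned to 1 locus. The miR-3473b counts still differed between entries of the same mature sequence, such as 478 and 305 reads in replicate 1 on chromosomes 13 and 15. A count therefore does not stand for all copies that share the sequence.

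The 7 miR-3473b entries lay on chromosomes 1, 2, 9, 13, 15, 17 and X. Only that on chromosome 2, in an intron of Optn, was listed in both libraries. It had 513 mature and 10 star reads with a score of 260.0 in replicate 1, but 841 mature and 2 star reads with a score of -2.9 in replicate 2. In replicate 1 only, 4 entries were listed, with 305 to 478 reads, and in replicate 2 only 2, with 782 and 877. Which hairpin was listed thus changed between the libraries, while each listed entry had at least 305 reads.

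The libraries were tested against each other entry by entry with a two-sided exact binomial test and Benjamini-Hochberg adjustment over the 431 entries that were in both tables and had at least 20 mature reads in sum. The test asks whether the share of an entry differed beyond counting error. It called 41.1% of all entries tested at an adjusted p under 0.05. Of the 214 late-numbered entries 93 could be tested, and 19 were called (20.4%), a share below that background. From 100 to under 1000 reads, 14 of 27 late-numbered and 26 of 95 lower-numbered entries were called, and within 10 to 99 reads 2 of 61 and 3 of 55.

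The 19 called entries held 14 different mature sequences. A higher share in replicate 2 was found for 18 of the 19, against 119 of 177 called entries in all. With TMM scaling the split was 12 of 15 late-numbered and 86 of 178 in all. The largest difference was that of miR-1931, with 15 and 215 mature reads, a log2 ratio of replicate 2 over replicate 1 of 3.88 (exact binomial test, adjusted p = 6.7e-47). The next was miR-3963, with 56 and 306 reads and a log2 ratio of 2.49 (exact test, adjusted p = 1.8e-43). Neither had a star read in either library, and both began inside the RefSeq sequence.

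Of the other repeat-like entries, miR-1934-3p had 358 and 707 reads, a log2 ratio of 1.02 (exact test, adjusted p = 2.7e-28). The chromosome 2 entry of miR-3473b had a log2 ratio of 0.75 (exact test, adjusted p = 2.4e-20). Smaller differences were called for deeply read entries, with log2 ratios of 0.24 for miR-5099, 0.08 for miR-1983 and 0.39 for miR-6540-5p. The single entry with a lower share in replicate 2 was miR-1843a-5p, at -0.43 (exact test, adjusted p = 0.00013). No difference was called for miR-1981-5p (log2 ratio 0.03), miR-1839-5p (-0.09) or miR-3068-5p (0.05), each of which had star reads in both libraries. So did the called miR-6540-5p and miR-1843a-5p, while miR-3081-3p and the chromosome 1 entry of miR-5126, without a star read, were not called.

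Several names occurred on more than 1 hairpin. There were 17 such names, with 41 entries. In 36 late-numbered entries the hairpin overlapped another late-numbered hairpin over the same reads. At miR-1943-5p, in an intron of Tmem184b, both hairpins listed 289 and 348 reads. One had 6 and 14 star reads with scores of 150.0 and 180.0, and the other had none and a score of -1.4. At miR-3057-5p, with 75 and 117 reads in Apba3, one hairpin had 4 and 0 star reads and a score of 2.3, and the other none and -3.5. A score thus belonged to a fold of the locus, not to the reads alone.

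The remaining 131 late-numbered entries, at no intron end or small nucleolar RNA, with at most 100 copies and no lower-numbered antisense partner, took 0.428% and 0.499% of mature reads. Of these, 73 were in both tables (55.7%). A star read was seen in 34 of 108 in replicate 1 and 31 of 96 in replicate 2, and a score of 10 or more in 11 of each. Their reads began at the RefSeq base in 82 of 107. The shares of listing and of star reads in this remainder were near those of all 214. Since the 131 make up most of the 214, part of this closeness is built in.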

How the data were processed

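Total RNA was extracted with Trizol, libraries were made with the TruSeq small RNA kit, and single-end reads of 50 bases were mapped by the authors to mm9 with miRDeep2, separately for each library. They deposited raw counts of mature, star and loop reads on known precursors and the miRDeep2 score, which the authors' tables round. Versions of miRDeep2 and miRBase are not given in the sources used here. Hairpins of the tables were taken as 1 entry if they shared a strand and at least 50% of each length. All 1091 precursor sequences were identical to NCBIM37 (mm9) once table coordinates were brought to counting from 1. Where the table places the reads on the opposite arm, the entry carries that arm's name. Genes and introns are those of GENCODE vM1, and an intron end was matched within 2 bases. Exact genome copies were counted on both strands, and hairpins folded with ViennaRNA 2.7.2. RefSeq sequences (GRCm38.p6) were found for 181 late-numbered entries. The binomial test (scipy 1.17.1) was tested on simulated data. It and the Wilson intervals cover counting error only. Alternative scalings came from edgeR 4.0.16 and DESeq2 1.42.0. Named entries are those with at least 10 mature reads in both libraries or called, repeated, antisense or next to the threshold, and those the rule names, chosen from these for each feature described. Members, lists and feature classes were chosen with earlier results of these data known. Classes by intron end, small nucleolar RNA and copy number were set after their values were seen.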

Additional observations from a re-analysis of the deposited data

How the results depend on the processing

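No paired analysis was possible because there is 1 group of samples. The share of mature reads on late-numbered entries moved from 0.644% to 0.371% with a threshold of 3000 and 0.730% with 1000. Among entries with at least 10 reads in a library, 77.0% of late-numbered and 93.4% of lower-numbered entries were in both tables, 39.0% and 73.3% had a star read (36.7% and 70.1% without this filter), the median score was 2.0 and 103.5, and 20.6% and 29.1% had more than 1 copy. Star support was 33.6% and 39.3% with thresholds of 3000 and 1000, 17.9% with at least 3 and 5.15% with at least 10 star reads. The lower-numbered share was 58.5% and 47.6% at those star counts. The median score was -0.775 with the threshold of 3000, and 49.75 among entries scoring 10 or more. More than 1 genome copy was found for 10.6% with each mature sequence once, 1.87% by precursor and 32.7% by the first 18 bases, each below the lower-numbered share. With either library left out, the number of entries was 155 to 175, the share 0.597% to 0.692%, star support 35.4% to 38.1%, the median score -0.4 to 0.4 and multiple copies 13.5% to 13.7%. Calls between libraries ranged from 14 to 21 late-numbered entries over 6 alternatives. Causes of these shifts were not tested. Depth limits the star counts, since an entry with no star read may have up to 3 within counting error and the median late-numbered entry had 15 mature reads.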
